A study of Mus musculus with 12 samples.

Results

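The genes described here are 44 genes of the mitotic spindle and of chromosome segregation, chosen by name from 10 functions of mitosis, from the cyclins and kinases that start it to the proteins that divide the cell at its end. All 44 were on the array, each through at least 1 probe set that carried its symbol alone, among 18193 genes with such a probe set. They had 98 of the 34945 probe sets of these genes, and each gene is described by its probe set with the highest mean over all 12 arrays. RNA came from the auditory nerves of adult mice (CBA/CaJ, both sexes, aged 8 to 12 weeks) at 3 and at 7 days after surgery. The right ears had received ouabain, an inhibitor of the sodium potassium pump, at 3 mM in the round window niche for about 60 min, and the contralateral left ears, which were not operated on, served as controls. There was no group with surgery alone, so surgery and ouabain cannot be told apart. What was dissected was the modiolus, the bony axis of the cochlea with the spiral ganglion neurons and their nerve, so that neurons, glial cells, vessels and other cells were mixed in each sample. Each of the 4 groups had 3 arrays, each array carried RNA pooled from 2 preparations, and the p-values reflect only how far such pools differed from each other.

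Most cells of an adult nerve are out of the cell cycle, and the genes of mitosis are then transcribed at a low level. As a cell approaches division they are switched on together, and their products condense the chromosomes, build the spindle, attach each chromosome to it through the kinetochore, hold back separation until all are attached, and then pull the sister chromatids apart. Schwann cells, the glia of peripheral nerve, are known to re-enter division after nerve injury, as do macrophages and other cells of an injured nerve. In tissue RNA, fewer cells of a type and less RNA per cell cannot be told apart.

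Many genes of this late part of the cycle share short promoter elements, the cell cycle genes homology region (CHR, searched as TTTGAA) and the CCAAT box (searched as CCAAT), which is bound by the factor NF-Y. The promoters of 5 of the 44 genes are shown because they hold both elements and belong to genes at the start and at the end of mitosis. They are the genes of the cyclin and kinase, passenger complex and exit groups with the largest 3-day fold change whose CHR lay whole within 120 bases before to 30 bases after the transcription start. The sequences are from RefSeq on build GRCm38.p6, written 5′ to 3′ on the strand of the gene, with both elements in capitals on either strand (TTCAAA and ATTGG on the reverse strand). They are Ccnb2 at chr9:70421525-70421674 (− strand), Ube2c at chr2:164769809-164769958 (+ strand), Cdk1 at chr10:69352883-69353032 (− strand), Cdca8 at chr4:124936888-124937037 (− strand) and Cdc20 at chr4:118437314-118437463 (− strand).
Ccnb2: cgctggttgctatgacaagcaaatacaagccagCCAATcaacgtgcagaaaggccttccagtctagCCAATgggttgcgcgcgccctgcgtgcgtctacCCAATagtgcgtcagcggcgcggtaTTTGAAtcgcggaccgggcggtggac
Ube2c: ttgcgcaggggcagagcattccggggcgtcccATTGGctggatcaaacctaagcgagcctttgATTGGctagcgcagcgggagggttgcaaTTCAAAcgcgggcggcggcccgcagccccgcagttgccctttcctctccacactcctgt
Cdk1: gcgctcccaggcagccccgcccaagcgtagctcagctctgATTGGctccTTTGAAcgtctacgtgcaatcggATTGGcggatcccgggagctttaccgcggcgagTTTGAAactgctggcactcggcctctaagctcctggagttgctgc
Cdca8: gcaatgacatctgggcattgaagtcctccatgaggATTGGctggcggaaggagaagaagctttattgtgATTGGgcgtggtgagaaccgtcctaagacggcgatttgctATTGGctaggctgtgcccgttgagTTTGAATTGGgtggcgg
Cdc20: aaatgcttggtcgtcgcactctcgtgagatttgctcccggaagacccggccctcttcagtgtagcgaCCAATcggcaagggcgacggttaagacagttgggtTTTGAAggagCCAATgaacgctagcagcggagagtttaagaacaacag

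Ccnb2, cyclin B2, had CCAAT boxes that began at −87, −54 and −21 relative to the start, 33 bases apart each, and a CHR that began at 5. Cdk1, the kinase that the mitotic cyclins activate, had boxes at −80 and −48 and CHR elements at −71 and −15. In Cdca8, borealin of the passenger complex, the CHR at 14 and a box at 19 shared 1 base. A CHR was found in 29 of the 38 members that the promoter table holds (76.3%), against 18.1% of its 27025 genes, in windows of 250 bases before to 50 after the first listed start. The CHR began within 40 bases of the start in 26 members (68.4%), against 4.16% of all genes. A CCAAT box was found in 27 members (71.1%), against 37.9% of all genes, and both elements in 24 (63.2%), against 7.12%. A pair of boxes 30 to 35 bases apart stood in 9 members (23.7%), against 1.72%, and the variant TTTAAA stood in 9 members (23.7%), against 13.2%. The distance from the start and the spacing were chosen after the matches were seen, and a match in these letters is a description of the sequence and not a test of binding. Kif20a, Tpx2, Ccna2, Dlgap5, Pbk and Aurkb were not matched in the table.

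The deposited values are log2 expression values after RMA, so that a difference of 1 is a doubling, and 45037 probe sets were tested with limma. A probe set was called at an adjusted p under 0.05 over all of these and a fold change above 1.5. The array medians lay between 6.01 and 6.09. Single arrays stood apart in these genes. Control replicate 1 at 7 days had the highest value of its 3 controls in 43 of the 44 members, against 30.1% of all probe sets, and the members stood a median of 1.14 above the mean of the other controls of that day. On the same array all 10 genes of an erythroid list and all 12 of a granulocyte list were the highest of the 3 controls, by medians of 2.26 and 2.04. Their part in the mitotic values was not tested, and the 7-day fold changes and counts of the members are given with and without this array. Ouabain replicate 1 at 3 days had the lowest value of its group in 43 members, against 36.5% of all probe sets, by a median of 0.47. It was also the lowest of its group in all 12 granulocyte genes, 29 of 32 replication genes and 10 of 14 macrophage genes. The same array was the highest of its group in 11 of 12 neuronal markers and 7 of 10 erythroid genes. The part of these cells in the mitotic values was not tested.

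The tissue label was checked on markers. The 8 Schwann cell and myelin genes summed to 40692 to 40953 on the ouabain arrays and 47664 to 49336 on the controls at 3 days, and to 35698 to 39053 on the ouabain arrays and 45771 to 47774 on the controls at 7 days. These sums were lower on the ouabain arrays and did not overlap with the controls on either day, but the genes did not all move alike. At 3 days 1 of the 8 was called higher and 2 lower, against 5.71% and 6.58% of all probe sets. At 7 days 2 were called higher and 3 lower, against 6.14% and 6.51%. The median log2 level of the 8 was 11.86 to 12.18 on the 3-day ouabain arrays and 11.69 to 11.88 on the controls of that day. Taken gene by gene, the median difference from these controls was negative, −0.23, −0.21 and −0.36 on ouabain replicates 1, 2 and 3. The 12 neuronal markers summed to 9768 to 24657 on the ouabain arrays and 57662 to 59932 on the controls at 3 days, and to 5320 to 13695 on the ouabain arrays and 53160 to 58839 on the controls at 7 days. Of these 12 markers, 10 were called lower and 1 higher on each day.

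**Figure D1:**
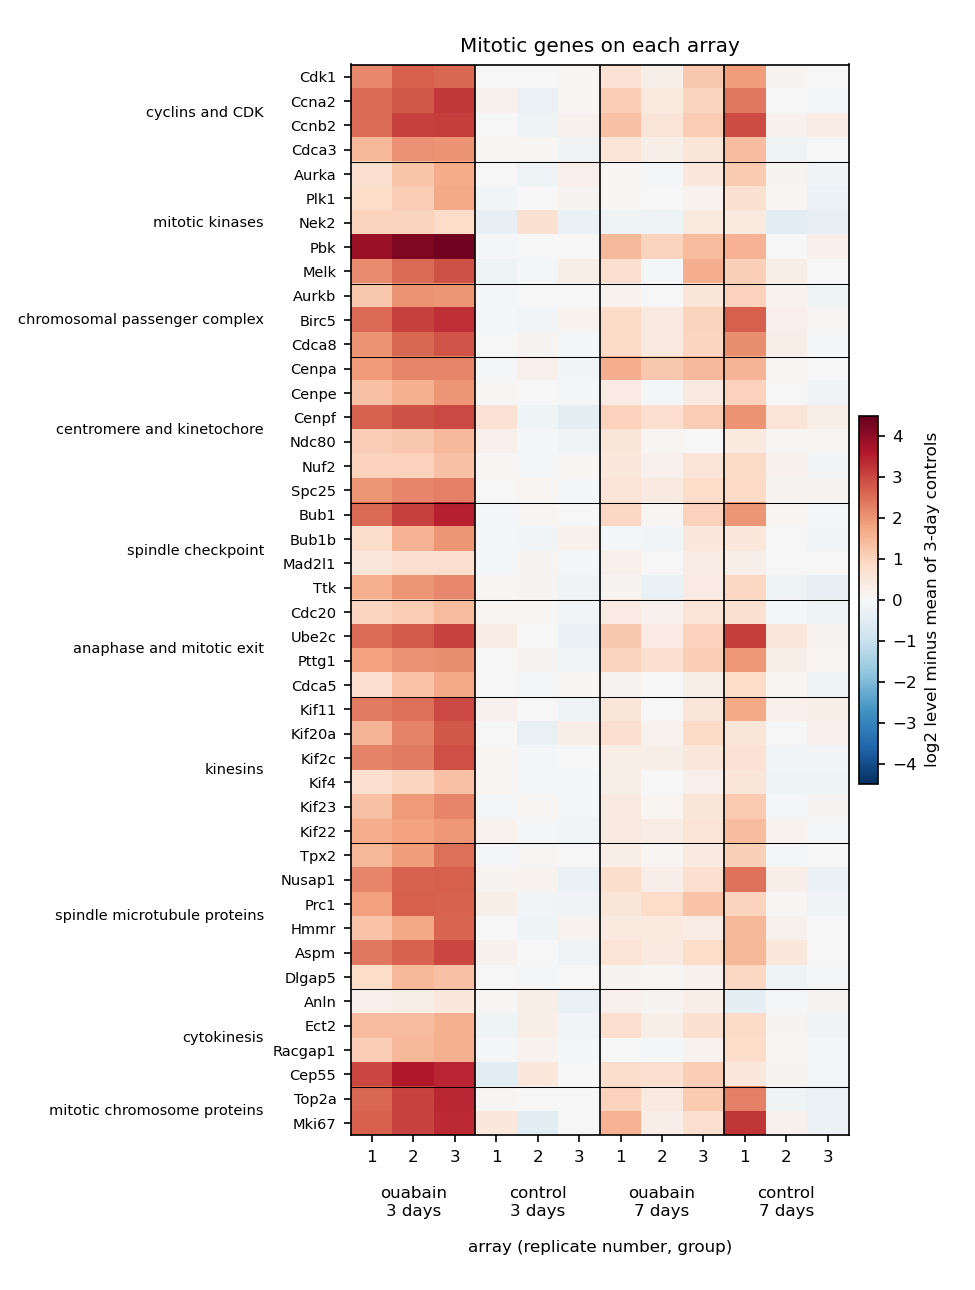
Each row is 1 of the 44 genes, grouped by function, and each column 1 array, with the 3 replicates of each group in order; the colour gives the log2 level minus the gene's mean on the 3-day controls. The 3-day ouabain arrays are the darkest, the 7-day ouabain arrays are paler, and control replicate 1 at 7 days is coloured in most rows.

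At 3 days 43 of the 44 genes were higher in ouabain-treated nerves and none was lower, against 5.71% of all probe sets called higher and 6.58% called lower. The exception was Anln, anillin, with a log2 fold change of 0.32 (SE 0.16, adjusted p = 0.197). The median log2 fold change of the members was 1.97, with a range of 0.32 to 4.14, and that of all probe sets was 0.0189. In 40 members the fold change exceeded 2, in 21 it exceeded 4 and in 4 it exceeded 8. In 43 members the lowest ouabain array stood above the highest control array, against 19.6% of all probe sets. The members' median relative to the controls was 1.63, 2.05 and 2.23 on ouabain replicates 1, 2 and 3 at 3 days. In the 3-day ouabain-treated nerves 2 of the 44 members had a mean below the median of all probe sets, 6.03, against 28 in the controls of that day.

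At 7 days none of the 44 genes was called by limma on all 12 arrays, against 6.14% of all probe sets called higher and 6.51% called lower. Only 3 had an unadjusted p under 0.05, against 35.6% of all probe sets, and the methods' unpaired test without adjustment called 1 higher, Cep55, against 5.58%. With a filter on low values, which left 37 members and 24037 probe sets, 2 were called higher, Cenpa and Cep55, against 10.2%. Cep55 passed that filter, a log2 value above 6 on 3 or more arrays, only because of its 3-day ouabain arrays. The median log2 fold change was 0.02, from −0.38 to 0.91, and the smallest adjusted p was 0.0512, for Cep55. The groups did not overlap in 2 members, Cep55 and Anln, in both with the ouabain arrays higher, against 21.4% of all probe sets. Without control replicate 1 all 44 differences were positive, with a median of 0.47, and 9 genes were called higher and none lower, against 4.91% and 6.04% of all probe sets. These were Ccna2, Ccnb2, Cdca3, Pbk, Cenpa, Pttg1, Prc1, Cep55 and Top2a. Then 27 members did not overlap, against 24.7% of all probe sets. Among the 7-day ouabain arrays replicate 2 had the lowest value in 41 members, and the share over all probe sets was not counted. The members' median relative to all 3 controls was 0.12, −0.21 and 0.20 on ouabain replicates 1, 2 and 3 at 7 days. With ouabain replicate 2 left out, none of the members was called at 7 days.

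**Figure D2:**
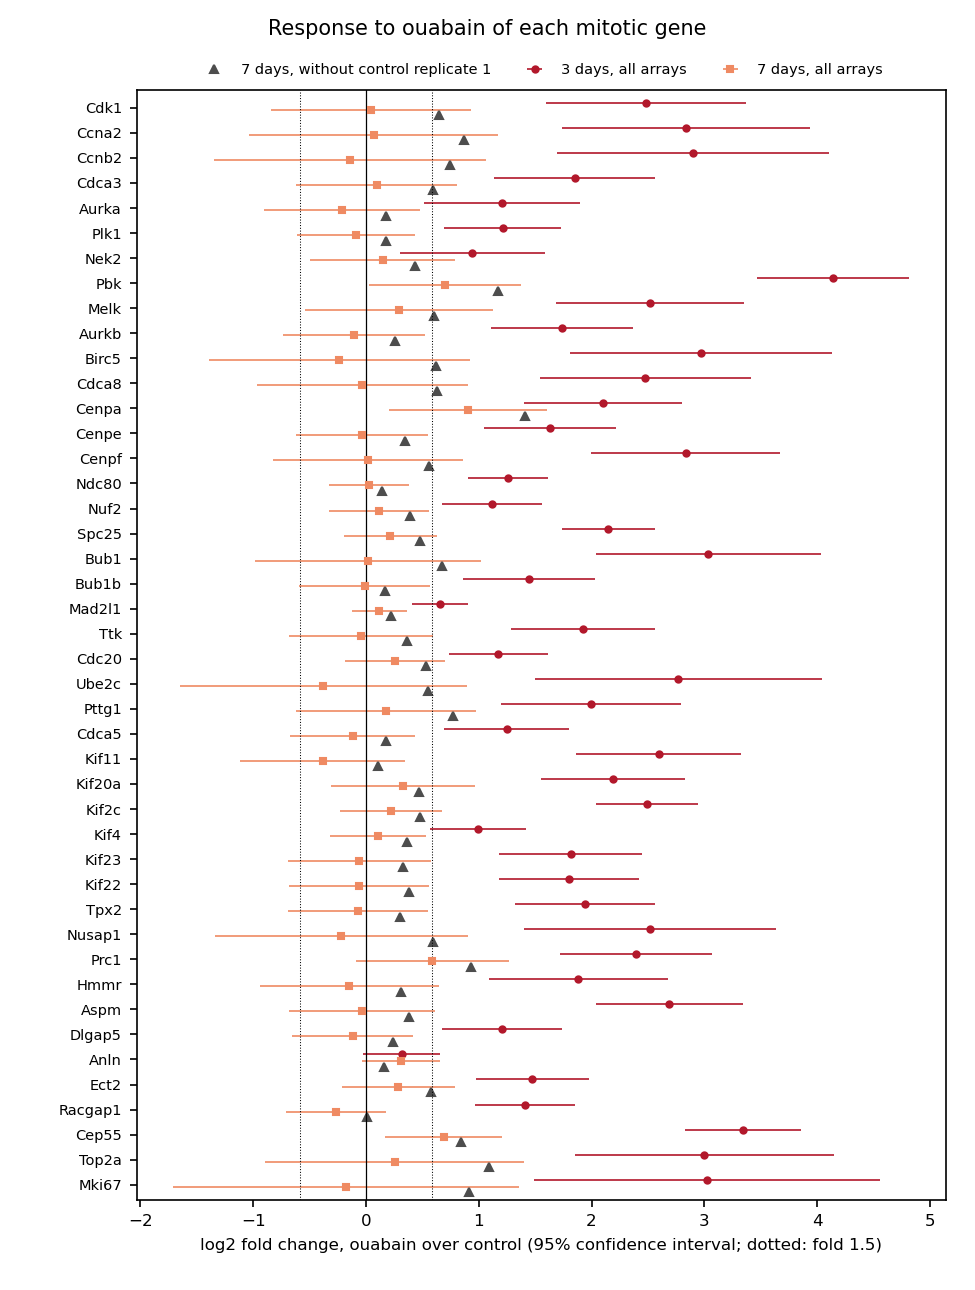
The log2 fold change of ouabain over control is shown for each of the 44 genes at 3 days (circles) and 7 days (squares) with 95% confidence intervals, and at 7 days without control replicate 1 (triangles). At 3 days the values run between 0.32 and 4.14, at 7 days they lie around 0 with wide intervals, and the triangles are all above 0.

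The cyclins and the kinase they activate control entry into mitosis, and all 4 genes of this group were higher at 3 days (median log2 fold change 2.66). Ccnb2 (probe set 1450920_at) had log2 levels of 7.89, 8.47 and 8.51 on the ouabain arrays, against 5.38, 5.20 and 5.59 on the controls at 3 days. At 7 days it had 6.70, 5.98 and 6.52 on the ouabain arrays, against 8.32, 5.59 and 5.71 on the controls. The ouabain arrays lay clear of the controls at 3 days, and at 7 days control replicate 1 exceeded every ouabain array of that day while the other controls lay below them. The log2 fold change of Ccnb2 was 2.90 (SE 0.55, adjusted p = 0.00199) at 3 days and −0.14 (SE 0.55, adjusted p = 0.895) at 7 days, or 0.75 (SE 0.23, adjusted p = 0.0415) without that control. Ccna2 (probe set 1417910_at), cyclin A2 of the S phase and early mitosis, measured 8.56, 8.81 and 9.21 in ouabain-treated nerves, against 6.21, 5.77 and 6.08 in controls at 3 days. Its levels at 7 days were 7.14, 6.45 and 7.01 in ouabain-treated nerves, against 8.41, 6.03 and 5.96 in controls. As for Ccnb2, control replicate 1 alone of the 7-day controls exceeded the ouabain arrays, with a log2 fold change of 2.84 (SE 0.50, adjusted p = 0.00125) at 3 days, 0.07 (SE 0.50, adjusted p = 0.948) at 7 days and 0.87 (SE 0.22, adjusted p = 0.019) at 7 days without control replicate 1. Cdk1 had a log2 fold change of 2.48 (SE 0.41, adjusted p = 0.000701) at 3 days, and Cdca3, which promotes the breakdown of the mitotic inhibitor Wee1, had 1.85 (SE 0.33, adjusted p = 0.0012). With the probe sets of a gene averaged, Cdca3 had 0.58 (adjusted p = 0.0024), just under the fold threshold.

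Pbk, a mitotic kinase, had the largest 3-day fold change of the 44 genes, 17.6-fold. Its levels (probe set 1448627_s_at) were 10.08, 10.37 and 10.51 on the ouabain arrays, against 6.14, 6.21 and 6.18 on the controls at 3 days. At 7 days they were 7.65, 7.17 and 7.60 on the ouabain arrays, against 7.73, 6.18 and 6.42 on the controls. The 3-day groups were about 4 units apart, and at 7 days the ouabain arrays stood above controls 2 and 3 and below control 1. Pbk had a log2 fold change of 4.14 (SE 0.31, adjusted p = 2.47e-06) at 3 days and 0.70 (SE 0.31, adjusted p = 0.126) at 7 days, and 1.17 (SE 0.16, adjusted p = 0.000423) at 7 days without control replicate 1. Melk (probe set 1416558_at), a kinase of dividing and progenitor cells, measured 6.51, 6.94 and 7.25 in ouabain-treated nerves, against 4.16, 4.34 and 4.64 in controls at 3 days. At 7 days Melk measured 5.09, 4.30 and 6.02 in ouabain-treated nerves, against 5.46, 4.69 and 4.37 in controls. Its 7-day ouabain arrays differed among themselves by more than 1.5 units and spanned the controls, and its log2 fold change stood at 2.52 (SE 0.38, adjusted p = 0.000396) at 3 days and 0.29 (SE 0.38, adjusted p = 0.649) at 7 days, or 0.60 (SE 0.39, adjusted p = 0.348) without control replicate 1. The kinases of the centrosome and spindle poles were also higher, Aurka with 1.21 (SE 0.32, adjusted p = 0.0145), Plk1 with 1.21 (SE 0.24, adjusted p = 0.00244) and Nek2 with 0.94 (SE 0.30, adjusted p = 0.0359). The call of Nek2 was lost when any 1 of the 3 ouabain arrays or control replicate 1 or 3 of that day was left out, and when its probe sets were averaged, and that of Aurka without ouabain replicate 3 or control replicate 2.

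The chromosomal passenger complex corrects faulty attachments to the spindle and later acts in cytokinesis, and its 3 genes were all higher at 3 days, with a median of 2.48. Birc5 (probe set 1424278_a_at), survivin, had log2 levels of 7.87, 8.37 and 8.62 in ouabain-treated nerves, against 5.27, 5.19 and 5.49 in controls at 3 days. At 7 days Birc5 had 6.18, 5.72 and 6.31 in ouabain-treated nerves, against 8.02, 5.54 and 5.36 in controls. Control replicate 1 at 7 days was within the range of the 3-day ouabain arrays, and the other controls were at the level of the 3-day controls. Birc5 had a log2 fold change of 2.97 (SE 0.53, adjusted p = 0.0013) at 3 days and −0.23 (SE 0.53, adjusted p = 0.808) at 7 days, or 0.62 (SE 0.22, adjusted p = 0.0721) without that control. Cdca8 (probe set 1436847_s_at) measured 8.28, 8.82 and 9.07 on the ouabain arrays, against 6.23, 6.36 and 6.16 on the controls at 3 days. Its 7-day levels were 7.10, 6.65 and 7.23 on the ouabain arrays, against 8.35, 6.55 and 6.19 on the controls, again with control replicate 1 highest. The log2 fold change of Cdca8 was 2.48 (SE 0.43, adjusted p = 0.00103) at 3 days and −0.03 (SE 0.43, adjusted p = 0.971) at 7 days, or 0.63 (SE 0.23, adjusted p = 0.0801) without control replicate 1. Aurkb, the kinase of the complex, had 1.74 (SE 0.29, adjusted p = 0.000762) at 3 days.

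All 6 members of the centromere and kinetochore, the plate that ties a chromosome to the spindle, were higher at 3 days, with a median of 1.87. Cenpf (probe set 1427161_at), a large protein of the outer kinetochore, had log2 levels of 7.46, 7.68 and 7.78 on the ouabain arrays, against 5.45, 4.61 and 4.36 on the controls at 3 days. At 7 days Cenpf had 5.84, 5.55 and 5.96 on the ouabain arrays, against 6.84, 5.38 and 5.07 on the controls. Its 3-day controls were spread over about 1 unit but stayed well under the ouabain arrays, and its log2 fold change stood at 2.83 (SE 0.38, adjusted p = 0.000177) at 3 days and 0.02 (SE 0.38, adjusted p = 0.981) at 7 days, or 0.56 (SE 0.26, adjusted p = 0.185) without control replicate 1. Spc25 (probe set 1424118_a_at), a subunit of the NDC80 complex that grips the microtubule, had 7.99, 8.22 and 8.28 in ouabain-treated nerves, against 5.99, 6.10 and 5.95 in controls at 3 days. Its levels at 7 days were 6.58, 6.40 and 6.84 in ouabain-treated nerves, against 6.91, 6.14 and 6.13 in controls. The replicates of each 3-day group lay within about 0.3 units, and Spc25 had a log2 fold change of 2.15 (SE 0.19, adjusted p = 7.53e-06) at 3 days and 0.22 (SE 0.19, adjusted p = 0.464) at 7 days, or 0.48 (SE 0.13, adjusted p = 0.0291) without control replicate 1, which is under the fold threshold. The other subunits of that complex measured here had smaller differences at 3 days, Ndc80 with 1.26 (SE 0.16, adjusted p = 0.000124) and Nuf2 with 1.12 (SE 0.20, adjusted p = 0.00138), and Cenpe, a kinetochore motor, had 1.63 (SE 0.27, adjusted p = 0.000717). Cenpa, the histone variant that marks the centromere, was singled out after its values were seen because it had the largest 7-day difference of the members. Its levels at 7 days were 7.95, 7.51 and 7.75 on the ouabain arrays, against 7.84, 6.37 and 6.29 on the controls. Control replicate 1 fell within the range of the ouabain arrays, and the log2 fold change was 0.91 (SE 0.32, adjusted p = 0.0586) at 7 days on all arrays, 1.41 (SE 0.15, adjusted p = 9.46e-05) without that control and 2.10 (SE 0.32, adjusted p = 0.000424) at 3 days. With the filter on low values the 7-day difference of Cenpa was called (adjusted p = 0.0444).

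The spindle checkpoint delays separation until every chromosome is attached. Its 4 genes were all higher at 3 days, with a median of 1.69 and a range of 0.66 to 3.04. Bub1 (probe set 1424046_at), a checkpoint kinase, had log2 levels of 6.87, 7.42 and 7.81 on the ouabain arrays, against 4.26, 4.39 and 4.34 on the controls at 3 days. At 7 days Bub1 had 5.25, 4.39 and 5.36 on the ouabain arrays, against 6.31, 4.41 and 4.23 on the controls. The 3-day controls lay within 0.2 units of each other, close to the lower quartile of all values, 4.32, while at 7 days ouabain replicate 2 and controls 2 and 3 were at that level and the remaining 3 arrays above it. Bub1 had a log2 fold change of 3.04 (SE 0.46, adjusted p = 0.000388) at 3 days and 0.02 (SE 0.46, adjusted p = 0.986) at 7 days, or 0.68 (SE 0.29, adjusted p = 0.141) without control replicate 1. Ttk (probe set 1449171_at), the kinase that starts checkpoint signalling, measured 5.96, 6.34 and 6.52 in ouabain-treated nerves, against 4.40, 4.45 and 4.18 in controls at 3 days. Its 7-day levels were 4.46, 4.05 and 4.72 in ouabain-treated nerves, against 5.27, 4.13 and 3.96 in controls. The groups were apart at 3 days and overlapped at 7 days, with a log2 fold change of 1.93 (SE 0.29, adjusted p = 0.000402) at 3 days and −0.05 (SE 0.29, adjusted p = 0.939) at 7 days, or 0.36 (SE 0.20, adjusted p = 0.259) without control replicate 1. Bub1b, BubR1 of the checkpoint complex, had 1.45 (SE 0.27, adjusted p = 0.00159) at 3 days, and Mad2l1, which holds back Cdc20, had the smallest called difference of the members, 0.66 (SE 0.11, adjusted p = 0.000967).

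Anaphase begins when Cdc20 and the ubiquitin ligase APC/C mark securin and the cyclins for breakdown. All 4 genes of this group were higher at 3 days, with a median of 1.62. Ube2c (probe set 1452954_at), the ubiquitin-conjugating enzyme of the APC/C, had log2 levels of 8.39, 8.64 and 8.92 on the ouabain arrays, against 6.20, 5.87 and 5.56 on the controls at 3 days. At 7 days Ube2c had 7.09, 6.24 and 6.93 on the ouabain arrays, against 8.98, 6.39 and 6.01 on the controls. It was the only member whose highest value of all 12 arrays was on control replicate 1 at 7 days. Ube2c had a log2 fold change of 2.77 (SE 0.58, adjusted p = 0.00389) at 3 days and −0.38 (SE 0.58, adjusted p = 0.708) at 7 days, or 0.55 (SE 0.26, adjusted p = 0.188) without that control. Pttg1 (probe set 1438390_s_at), securin, measured 10.51, 10.75 and 10.79 in ouabain-treated nerves, against 8.68, 8.80 and 8.58 in controls at 3 days. Its levels at 7 days were 9.70, 9.42 and 9.78 in ouabain-treated nerves, against 10.65, 8.96 and 8.77 in controls. All 3 ouabain arrays of 7 days stood above controls 2 and 3, and the log2 fold change of Pttg1 was 1.99 (SE 0.36, adjusted p = 0.00152) at 3 days, 0.18 (SE 0.36, adjusted p = 0.789) at 7 days and 0.77 (SE 0.13, adjusted p = 0.00198) without control replicate 1. Cdc20 had 1.17 (SE 0.20, adjusted p = 0.000997) and Cdca5, sororin, which guards sister chromatid cohesion, had 1.25 (SE 0.25, adjusted p = 0.00312) at 3 days. Another Cdca5 probe set had nearly the same mean, 5.34 against 5.35, and a 3-day log2 fold change of 2.985 (SE 0.50, adjusted p = 0.000841). The place of Cdca5 in this group thus depends on the probe set.

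The 6 kinesins among the members, motors that slide spindle microtubules or carry chromosomes along them, were all higher at 3 days, with a median of 2.0. Kif11 (probe set 1435306_a_at), which pushes the spindle poles apart, had log2 levels of 6.84, 6.98 and 7.49 on the ouabain arrays, against 4.71, 4.49 and 4.33 on the controls at 3 days. At 7 days Kif11 had 5.05, 4.53 and 5.04 on the ouabain arrays, against 6.23, 4.75 and 4.79 on the controls. At 7 days the ouabain arrays lay around controls 2 and 3 and below control 1, and its log2 fold change stood at 2.59 (SE 0.33, adjusted p = 0.000118) at 3 days and −0.38 (SE 0.33, adjusted p = 0.466) at 7 days, or 0.10 (SE 0.21, adjusted p = 0.802) without that control. Kif2c (probe set 1437611_x_at), which shortens microtubules at the centromere, measured 6.99, 7.08 and 7.64 in ouabain-treated nerves, against 4.82, 4.64 and 4.77 in controls at 3 days. Its 7-day levels were 5.04, 5.0 and 5.25 in ouabain-treated nerves, against 5.38, 4.62 and 4.63 in controls. Control replicate 1 stood out less in Kif2c than in most members, and its log2 fold change stood at 2.49 (SE 0.21, adjusted p = 4.98e-06) at 3 days and 0.22 (SE 0.21, adjusted p = 0.496) at 7 days, or 0.48 (SE 0.17, adjusted p = 0.0773) without that control. The 95% interval at 7 days on all arrays was −0.23 to 0.67. Kif20a and Kif23, motors of the central spindle, had 2.19 (SE 0.29, adjusted p = 0.000163) and 1.82 (SE 0.29, adjusted p = 0.000602) at 3 days. The motors that bind chromosome arms had 1.80 (SE 0.28, adjusted p = 0.000544) for Kif22 and 0.99 (SE 0.20, adjusted p = 0.00251) for Kif4.

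Proteins that nucleate, bundle or focus spindle microtubules formed a group of 6, all higher at 3 days, with a median of 2.17. Aspm (probe set 1422814_at), a protein of the spindle poles, had log2 levels of 7.0, 7.28 and 7.64 on the ouabain arrays, against 4.81, 4.58 and 4.45 on the controls at 3 days. At 7 days Aspm had 5.23, 5.02 and 5.44 on the ouabain arrays, against 6.09, 5.10 and 4.61 on the controls. The groups overlapped at 7 days and lay over 2 units apart at 3 days, and its log2 fold change stood at 2.69 (SE 0.30, adjusted p = 4e-05) at 3 days and −0.04 (SE 0.30, adjusted p = 0.954) at 7 days, or 0.38 (SE 0.21, adjusted p = 0.253) without control replicate 1. Nusap1 (probe set 1416309_at), which bundles microtubules near chromosomes, measured 8.69, 9.13 and 9.18 in ouabain-treated nerves, against 6.61, 6.63 and 6.19 in controls at 3 days. Its levels at 7 days were 7.26, 6.76 and 7.22 in ouabain-treated nerves, against 8.93, 6.79 and 6.17 in controls. Control replicate 1 at 7 days reached the 3-day ouabain range, and Nusap1 had a log2 fold change of 2.52 (SE 0.51, adjusted p = 0.00314) at 3 days and −0.22 (SE 0.51, adjusted p = 0.815) at 7 days, or 0.60 (SE 0.23, adjusted p = 0.1) without that array. Prc1, which crosslinks microtubules of the central spindle, had 2.39 (SE 0.31, adjusted p = 0.000124) at 3 days and 0.59 (SE 0.31, adjusted p = 0.202) at 7 days, or 0.94 (SE 0.27, adjusted p = 0.0353) without control replicate 1. Tpx2, the activator of Aurka, had 1.94 (SE 0.29, adjusted p = 0.000316) at 3 days, and Hmmr and Dlgap5, also proteins of the spindle, had 1.88 (SE 0.36, adjusted p = 0.00218) and 1.21 (SE 0.25, adjusted p = 0.00307).

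In cytokinesis 3 of 4 genes were higher at 3 days, with a group median of 1.44. Cep55 (probe set 1452242_at), which recruits the machinery of the final cut, had log2 levels of 8.08, 8.70 and 8.51 on the ouabain arrays, against 4.59, 5.58 and 5.09 on the controls at 3 days. At 7 days Cep55 had 5.87, 5.80 and 6.18 on the ouabain arrays, against 5.56, 5.22 and 5.01 on the controls. No ouabain array reached down to the controls on either day, and control replicate 1 of 7 days stood only slightly above its neighbours. The log2 fold change of Cep55 was 3.35 (SE 0.24, adjusted p = 1.74e-06) at 3 days and 0.69 (SE 0.24, adjusted p = 0.0512) at 7 days, with 0.84 (SE 0.26, adjusted p = 0.0423) at 7 days without that control. The 7-day difference of Cep55 was called with the filter on low values (adjusted p = 0.0382). Outside the 3-day ouabain arrays Cep55 exceeded the filter value of 6 only on ouabain replicate 3 at 7 days. It therefore passed the filter through its 3-day response, and this call is no separate support. Ect2 (probe set 1419513_a_at), which activates RhoA at the division plane, measured 7.86, 7.89 and 8.04 in ouabain-treated nerves, against 6.26, 6.77 and 6.32 in controls at 3 days. Its 7-day levels were 7.21, 6.70 and 7.12 in ouabain-treated nerves, against 7.30, 6.59 and 6.29 in controls. Ect2 had a log2 fold change of 1.48 (SE 0.23, adjusted p = 0.000484) at 3 days and 0.29 (SE 0.23, adjusted p = 0.427) at 7 days, when control replicate 1 exceeded all ouabain arrays, or 0.57 (SE 0.18, adjusted p = 0.0507) without that control. Racgap1 of the centralspindlin complex had 1.41 (SE 0.20, adjusted p = 0.000278) at 3 days and −0.26 (SE 0.20, adjusted p = 0.402) at 7 days, or 0.01 (SE 0.15, adjusted p = 0.971) without that control. Anln (probe set 1433543_at), the scaffold of the contractile ring, had 9.79, 9.83 and 10.06 on the ouabain arrays, against 9.62, 9.83 and 9.27 on the controls at 3 days. At 7 days Anln had 9.76, 9.71 and 9.87 on the ouabain arrays, against 9.16, 9.54 and 9.70 on the controls. It was the only member in which control replicate 1 at 7 days was the lowest of its group, and its levels moved by under 1 unit over all 12 arrays.

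Top2a, which untangles chromosomes, and Mki67, which coats them in mitosis, were higher at 3 days by nearly the same amount. Mki67 (probe set 1426817_at) had log2 levels of 9.44, 9.79 and 10.12 on the ouabain arrays, against 7.23, 6.29 and 6.75 on the controls at 3 days. At 7 days Mki67 had 8.33, 7.07 and 7.49 on the ouabain arrays, against 9.98, 6.94 and 6.49 on the controls. It had the widest spread of the members within the 7-day controls, and its log2 fold change stood at 3.02 (SE 0.70, adjusted p = 0.00716) at 3 days and −0.18 (SE 0.70, adjusted p = 0.898) at 7 days, with a 95% interval of −1.71 to 1.36 at 7 days. Without control replicate 1 the 7-day value of Mki67 was 0.91 (SE 0.36, adjusted p = 0.107), on the other side of 0. Top2a (probe set 1454694_a_at) measured 8.67, 9.12 and 9.47 in ouabain-treated nerves, against 6.14, 6.07 and 6.05 in controls at 3 days. Its levels at 7 days were 7.11, 6.49 and 7.27 in ouabain-treated nerves, against 8.37, 5.91 and 5.82 in controls. All 7-day ouabain arrays stood above controls 2 and 3 and below control 1, and Top2a had a log2 fold change of 3.00 (SE 0.53, adjusted p = 0.00114) at 3 days, 0.26 (SE 0.53, adjusted p = 0.786) at 7 days and 1.09 (SE 0.24, adjusted p = 0.00813) at 7 days without control replicate 1.

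**Figure D3:**
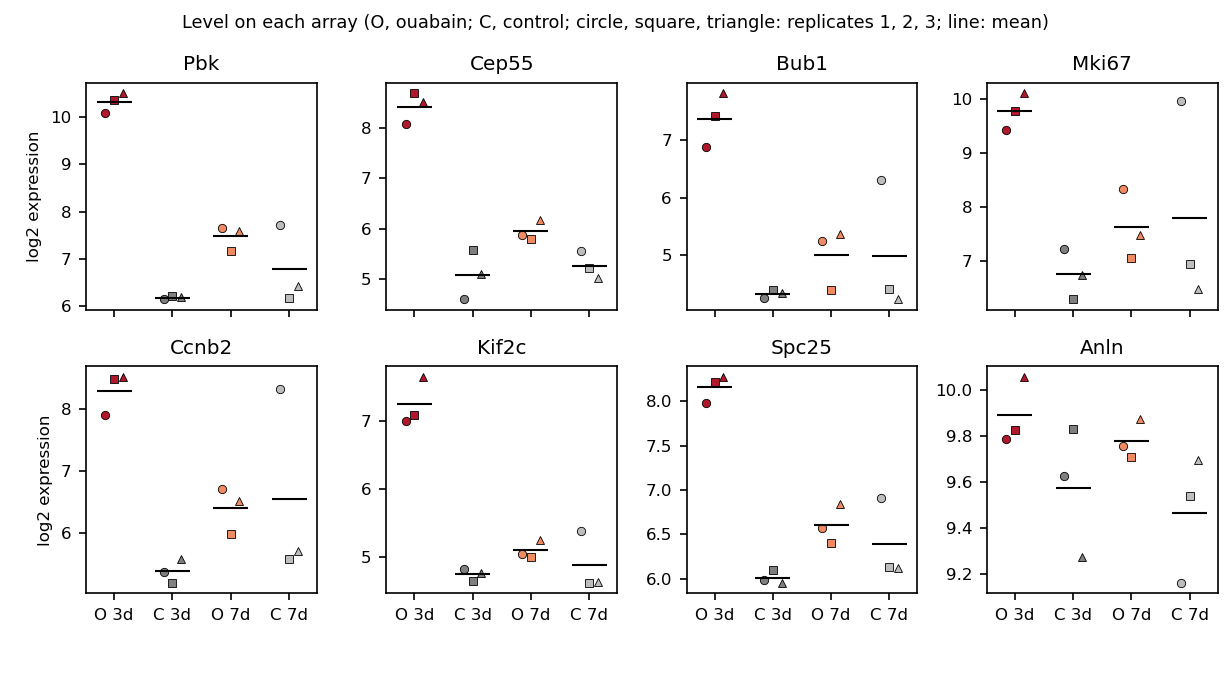
The log2 level on each array is shown for 8 of the genes by group, with ouabain (O) left of control (C) at each day, 1 marker shape per replicate number and a line at the group mean. The 3-day ouabain arrays lie above the 3-day controls in every panel but that of Anln, and the circle of the 7-day controls lies far above the other controls in Bub1, Mki67 and Ccnb2.

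Whether the response differed between the days was tested as the 7-day response minus the 3-day response. It was lower at 7 days in 10 of the 44 genes, against 0.653% of all probe sets, and higher in none, against 0.169%. The difference was negative in all 44, with a median of −1.87, and 42 had an unadjusted p under 0.05, against 12.7% of all probe sets. The 10 genes were Pbk, Cep55, Kif2c, Spc25, Aspm, Kif11, Racgap1, Ndc80, Cenpf and Tpx2. Pbk had a log2 fold change of 0.70 at 7 days, against 4.14 at 3 days, a difference of −3.44 (SE 0.44, adjusted p = 0.00402). For Cep55 the difference was −2.66 (SE 0.33, adjusted p = 0.00396), for Kif2c −2.27 (SE 0.29, adjusted p = 0.00431) and for Spc25 −1.93 (SE 0.27, adjusted p = 0.00609). In Cep55, Kif2c and Spc25 control replicate 1 of 7 days stood out less than in most members. Bub1, with −3.02 (SE 0.65, adjusted p = 0.0581), and Mki67, with −3.20 (SE 0.99, adjusted p = 0.177), had differences of like size and larger standard errors, and were not called. Without control replicate 1 the response was lower at 7 days in 23 genes, against 0.537% of all probe sets, and higher in none, against 0.0711%, with a median of −1.53, and 9 of the 10 were among them, all but Ndc80. Bub1 was then called, with −2.36 (SE 0.39, adjusted p = 0.0239), and Mki67 was not, with −2.11 (SE 0.48, adjusted p = 0.102). With 1 of the other arrays left out the count was between 6 and 19, with 19 without ouabain replicate 1 of 3 days or control replicate 3 of 7 days. Of the 10 genes, Pbk, Cep55, Kif2c, Spc25, Aspm and Kif11 kept the call whichever of the 12 arrays was left out, while Cenpf, Ndc80 and Tpx2 lost it in 8 of these 12 fits each and Racgap1 in 6.

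Within the ouabain-treated nerves alone, which the comparisons above also use, 33 genes were lower at 7 days than at 3 days, against 1.67% of all probe sets, and none was higher. The median difference was −1.51, the 7-day mean was the lower in all 44, and in 43 the highest 7-day array lay below the lowest 3-day array, against 10.1% of all probe sets. The largest differences were in Pbk, with −2.84 (adjusted p = 0.000358), and Cep55, with −2.48 (adjusted p = 0.000158). Cenpa, with −0.67 (adjusted p = 0.295), and Anln, with −0.11 (adjusted p = 0.796), were among the 11 that were not called. In the controls none of the 44 was called between 7 and 3 days, against 0.00222% of all probe sets called higher and 0.00888% called lower, and 3 had an unadjusted p under 0.05, against 6.89%. Their median difference was 0.38 on all arrays and 0.0038 without control replicate 1 at 7 days.

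Other genes of mitosis, in 5 lists of 105 measured genes, had a median of 0.50 on the log2 scale at 3 days, beside 1.97 for the 44. Of these 48 were higher and 2 lower, against 5.71% and 6.58% of all probe sets. Of 28 further centromere and kinetochore genes 19 were higher and 1 lower, led by Cenpk with 1.97, Cenpi with 1.91 and Cenpp with 1.85 on the log2 scale. Of 31 further kinesin and spindle genes 16 were higher and none was lower, led by Depdc1a with 2.74, Ckap2, a spindle protein, with 2.54 and Shcbp1 with 2.03. Of 8 condensin subunits, which compact the chromosomes, 4 were higher, led by Ncapg with 2.12, Ncaph with 1.56 and Smc2 with 1.31. Of 23 genes of cohesion and the APC/C 5 were higher, led by Esco2, an acetyltransferase of cohesin, with 2.78, Sgo1, which protects centromeric cohesion, with 1.48 and Espl1, separase, with 1.43. None of the core APC/C and cohesin subunits in that list was among the 5. Of 15 genes of mitotic entry 4 were higher and 1 lower, led by Cks2 with 1.47, Mastl with 1.34 and Ccnf with 1.20. The 2 lower genes, named after their values were seen, were Zwint, a kinetochore protein that neurons also express, with −1.44, and Wee1, the kinase that holds Cdk1 inactive, with −0.79. At 7 days 2 of the 105 were higher, Mis18a with 0.68 and Plk4 with 0.72, and 3 were lower, Zwint with −1.68, Wee1 with −0.98 and the condensin subunit Ncapd2 with −0.84. Both counts were a smaller share than in all probe sets, where 6.14% were called higher and 6.51% lower. Without control replicate 1 the 7-day counts were 8 higher and 3 lower, against 4.91% and 6.04% of all probe sets. Of 32 genes of DNA replication, which precedes mitosis, 22 were higher and none was lower at 3 days, with a median of 0.77. At 7 days none was higher and 2 were lower, with a median of 0.0089, and the 2 were about the 6.51% of all probe sets called lower. Without control replicate 1 the 7-day counts of these were 3 higher and 1 lower, against 4.91% and 6.04% of all probe sets, with a median of 0.25.

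Markers of other cell types were set beside the members. The 10 erythroid genes had none called at 3 days (median −0.03 on the log2 scale), and the 12 granulocyte genes had none called, with −0.16. Of all probe sets 5.71% were called higher and 6.58% lower at 3 days, and in lists this short none called lies near those shares. Their medians on control replicates 1, 2 and 3 at 7 days, relative to these controls, were 1.51, −0.54 and −0.90 for the erythroid genes and 1.36, −0.01 and −1.24 for the granulocyte genes, against 0.76, −0.34 and −0.45 for the mitotic genes. The summed level of the erythroid genes ranged between 868 and 1927 on the ouabain arrays and between 923 and 6893 on the controls at 7 days. At 3 days it ranged between 485 and 942 on the ouabain arrays and between 436 and 1053 on the controls. The granulocyte sum ranged between 5588 and 12013 on the ouabain arrays and 4004 and 26806 on the controls at 7 days, and between 10472 and 22181 on the ouabain arrays and 16236 and 18622 on the controls at 3 days. None of the 12 granulocyte genes and 3 of the 10 erythroid genes had a mean below the lower quartile of all probe sets in the 3-day controls. The summed erythroid and granulocyte levels overlapped between the groups at 3 days, and the part of these cells in the mitotic values was not tested. All 14 macrophage genes were higher at 3 days, by a median of 1.63, with sums of 30257 to 32683 on the ouabain arrays and 10968 to 12421 on the controls. At 7 days 13 of them were higher, or all 14 without control replicate 1, with sums of 33742 to 35338 on the ouabain arrays and 11050 to 15891 on the controls. The part of the macrophages in the mitotic values was not tested, and which cells carried the mitotic RNA cannot be told from these arrays.

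**Figure D4:**
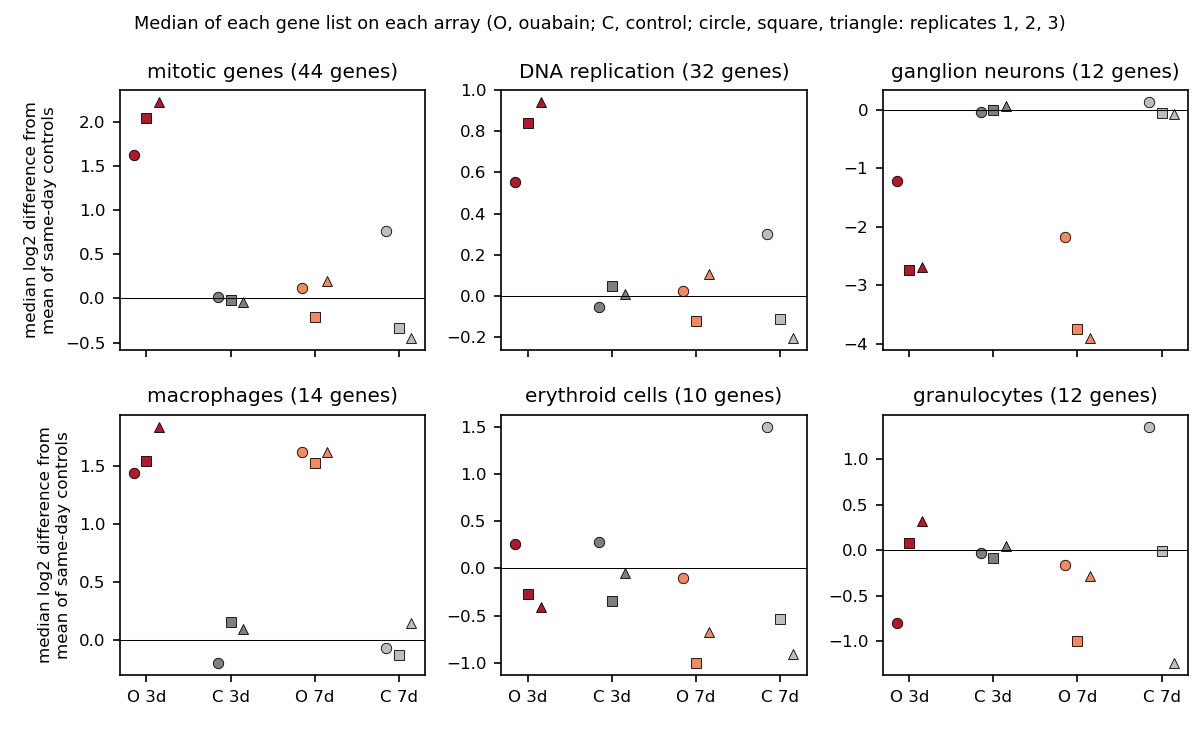
The median over each gene list of the difference from the mean of the same-day controls is shown on each array, with ouabain (O) left of control (C) at each day. The mitotic and replication genes are high on the 3-day ouabain arrays, the macrophage genes on the ouabain arrays of both days, and the mitotic, erythroid and granulocyte genes are high on control replicate 1 at 7 days.

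Probe sets of the same gene were compared for the 30 members with more than 1. Of all 98 probe sets 64 were higher at 3 days and none was lower, and none was called at 7 days. In 10 of the 30 genes every probe set was higher. Of the 54 probe sets that were not chosen 33 were not called at 3 days, and 21 of these had a mean below the lower quartile of all probe sets. When all probe sets of a gene were averaged, the median 3-day log2 fold change of the members was 1.24, and Cdca3 and Nek2 were no longer called.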

How the data were processed

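Gene expression was measured on 12 Affymetrix mouse genome arrays, 3 in each of 4 groups (ouabain-treated and control auditory nerves at 3 and 7 days). The authors processed the arrays by RMA in Affymetrix Expression Console, which corrects background, normalizes by quantiles and summarizes probe sets, and ran MAS5 for detection calls, with versions not given in the sources used here. The authors' deposited log2 values, 1 for each array and probe set, entered the tests as they stand. The labels and the study's methods differ on the RNA input per array. Mice whose hearing response had not shifted enough after ouabain were left out by the authors. No column lacked a sample.

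The 64 control probe sets among the 45101 in the table were not tested. Symbols came from the platform annotation, in which 932 probe sets have several symbols and 9160 have none, and 34741 were matched to the reference gene table by Entrez identifier. The 44 genes, the gene lists and the tests were chosen with earlier results of these data known. Values on every array are given for the pair of genes of each function with the largest 3-day fold change, the other members are given by their fold changes, and up to 3 called genes are named from each further mitotic list. Genes named for another reason are marked so in the text. Means of the 4 groups were compared in R 4.3.3 with limma 3.58.1 (lmFit and eBayes, two-sided), with Benjamini-Hochberg adjustment over 45037 probe sets, and SE is the moderated standard error. Members, lists, promoters and figures were handled in Python 3.11.15. The procedure was tested on simulated data of the same size. The number of arrays, 3 per group, limits the precision. Alternatives were the methods' unpaired test, fitting the 6 arrays of each day alone, a replicate block, no fold threshold, only probe sets above a log2 value of 6 on 3 or more arrays, quantile normalization once more, removal of each array's 75th percentile, eBayes with a trend and robust settings, other rules for the probe set of a gene, and each array left out in turn.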

Additional observations from a re-analysis of the deposited data

Results flagged for a closer look

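The response of 10 genes to ouabain differed between the days by the test of the difference itself, and each was lower at 7 days than at 3 days (7-day log2 fold change minus 3-day log2 fold change, limma). The differences were −3.44 for Pbk, −2.81 for Cenpf, −1.23 for Ndc80, −1.93 for Spc25, −2.98 for Kif11, −2.27 for Kif2c, −2.01 for Tpx2, −2.72 for Aspm, −1.67 for Racgap1 and −2.66 for Cep55. Pbk, Spc25, Kif11, Kif2c, Aspm and Cep55 were called under every alternative run for the day difference. Kif11, Kif2c, Aspm and Cep55 passed the filter on low values only because of their 3-day ouabain arrays, so that setting is no separate check for them. The probe set with the largest spread was the one already chosen in each gene called under every alternative, so that rule was no separate check. For Kif2c another probe set of nearly the same mean, 5.47, was not called at 3 days, with 0.35 (adjusted p = 0.0419). The chosen Kif2c probe set had group means of 4.74 to 5.10 outside the 3-day ouabain arrays, and was thus chosen through those arrays. For Kif11 a probe set with a mean of 4.94 was not called at 3 days, with −0.10 (adjusted p = 0.623), and another was, with 1.52. With each of the 12 arrays left out in turn, Cenpf, Ndc80 and Tpx2 lost the call in 8 fits each and Racgap1 in 6. Without control replicate 1 at 7 days Ndc80 alone of the 10 lost it, with −1.11 (adjusted p = 0.0724). The groups of 3 arrays were not searched for single outlying values.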

How the results depend on the processing

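At 3 days 41 to 43 members were called higher when each array was left out in turn, and none reversed. The methods' test kept 42 without adjustment, losing Nek2, and 37 with adjusted p, losing Aurka, Plk1, Nek2, Bub1b, Cdca5 and Hmmr. When a gene's probe sets were averaged, the 3-day median was 1.24, against 1.97, and Cdca3 and Nek2 lost their calls. At 7 days, where none was called on all arrays, 1 was called by the methods' test without adjustment, by the fit on the arrays of the day, after subtraction of the 75th percentile and with a mean-variance trend (Cep55 each time). The filter on low values, which left 37 members tested, called 2, Cenpa and Cep55, and the fits without 1 array called 0 to 9, with 9 only without control replicate 1 at 7 days. Cep55 passed the filter only because of its 3-day ouabain arrays. The day difference was called lower in 10 members, and in 6 to 23 when each array was left out, with 23 without control replicate 1 at 7 days and 19 without control replicate 3 at 7 days or ouabain replicate 1 at 3 days. It was 6 without control replicate 3, ouabain replicate 2 or ouabain replicate 3 at 3 days or ouabain replicate 2 at 7 days. The cause was not tested. Equal replicate numbers within a day correlated at 0.334, 0.0892 and 0.177 at 3 days and at 0.277, 0.155 and 0.0189 at 7 days in their deviations from the group means, and were not taken as pairs: the controls are the other ears of treated mice, but no source says that equal numbers mark the same mice. With the replicate block 43 members were called higher at 3 days, 2 at 7 days (Cenpa and Cep55), and 8 lower in the day difference, 7 of them among the 10, without Cenpf, Tpx2 and Racgap1.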
